A study of Neogale vison with 6 samples.

Results

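The mevalonate pathway from acetoacetyl-CoA to squalene was followed in Mv1Lu cells through 7 of its enzymes, ACAT2, HMGCS1, PMVK, MVD, IDI1, FDPS and FDFT1. They were chosen by symbol, as the rows of the deposited count table that carry these names. Each symbol matched a single row, so the 7 genes stand among 24526 genes of the table, and all 7 passed the filter on low counts that left 12148 genes for testing. Mv1Lu cells are a line of epithelial origin, taken from the lung of mink. Cholesterol depletion (CD) lasted 16 h and combined 50 μM of the statin lovastatin with 50 μM mevalonate, in medium with 10% lipoprotein-deficient serum (LPDS). The control cells are labelled as untreated, so the statin, the added mevalonate and the change of serum cannot be told apart. Each group held 3 libraries of poly(A) RNA, and nothing in the labels states that they came from separate cultures, so p-values measure the spread between these libraries.

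The pathway builds isoprenoids from acetyl-CoA. ACAT2 and HMGCS1 make HMG-CoA, from which mevalonate is formed, and the kinases MVK and PMVK and the decarboxylase MVD convert mevalonate into isopentenyl diphosphate. Statins lower the supply of mevalonate. IDI1 isomerizes this unit, FDPS joins such units into farnesyl diphosphate, and FDFT1 couples farnesyl diphosphate into squalene, the first intermediate committed to sterols. In mammalian cells, the transcription of these enzymes is known to be raised by the sterol regulatory element-binding proteins (SREBPs), which leave the endoplasmic reticulum when its sterol content falls. MVK was not analysed here.

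Reads counted on genes numbered between 13473820 and 18633764 per library, and a member held between 1249 and 40899 reads in a library. Unmapped reads made up 4.25% to 18.4% of the control and 3.54% to 9.37% of the CD libraries. Of the epithelial markers, KRT7 and KRT19 were abundant, whereas CDH1 and EPCAM had 8 and 7 reads in all control and 18 and 2 in all CD libraries. The level of 5 epithelial markers, summed as counts scaled to library size (CPM) after scaling by the trimmed mean of M-values (TMM), lay between 7726 and 8377 in control and between 1484 and 1952 in CD. Most of this sum was KRT7, with a mean of 7126 CPM in control and 1256 CPM in CD, and KRT19 was lower too (936 and 458 CPM), whereas CLDN4 was higher (0.603 and 7.03 CPM, FDR 9.61e-06, edgeR). The summed CPM of 5 fibroblast markers, mostly COL1A2 (a mean of 212 and 164 CPM), went from 224–273 to 157–198, while DCN and LUM had 3 and 7 reads in all control and 15 and 35 in all CD libraries. The summed CPM went, for 3 endothelial markers, from at most 0.165 to 1.17–1.96, and for 2 leukocyte markers, nearly all of it CD68, from 5.13–5.62 to 16.9–22.4. PECAM1, CDH5 and PTPRC had 0 reads in all control and 11, 1 and 1 in all CD libraries, and VWF had 5 and 56 and was called higher (FDR 8.82e-04, edgeR). The part of these marker changes in the results was not tested. In such bulk samples a lower level in every cell and fewer cells with a transcript cannot be told apart.

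CD raised the transcripts of 6 of the 7 enzymes, and PMVK was the exception. A gene was called where edgeR's quasi-likelihood test gave a false discovery rate (FDR, Benjamini-Hochberg over all tested genes) below 0.05. This held for 47.7% of the tested genes, of which the higher ones in CD made up 24.8% and the lower ones 22.9% of all tested. None of the 7 was lower. The median log2 fold change of the 7 genes was 1.61, against 0.057 for all tested genes. For the same 6 genes all CD libraries lay above all control libraries in CPM, a pattern found in 29.5% of the tested genes, while the opposite one was found in 28.6% and in 0 of the members. Of these 6, 5 were at least 2-fold higher, as were 10.6% of the tested genes, and the remaining gene, MVD, was just under this size. Together, reads on the 7 genes made up 0.194%, 0.215% and 0.239% of the gene reads in the respective control libraries, and the CD libraries stood at 0.716%, 0.745% and 0.780%. The mean share was thus 3.46 times as high in CD.

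**Figure D1:**
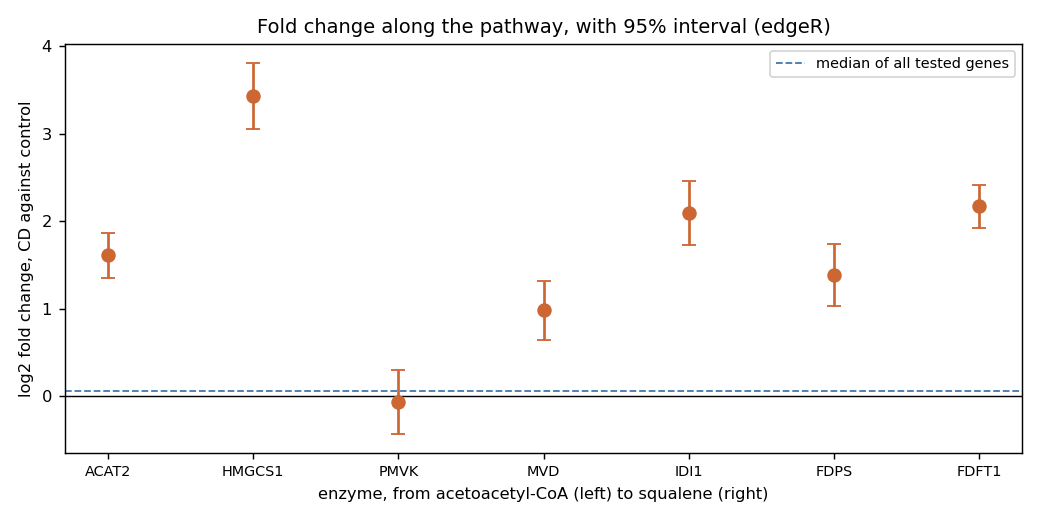
Log2 fold change of CD against control (vertical axis) of the 7 enzymes, ordered along the pathway, with 95% intervals from edgeR over 3 libraries per group; the dashed line is the median of all tested genes. HMGCS1 stands highest at 3.43, the interval of PMVK includes 0, and the other enzymes lie between 0.98 and 2.17.

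At the entry of the pathway, HMGCS1 had the largest change of the 7 genes. ACAT2 (ENSNVIG00000010262), the cytosolic thiolase that makes acetoacetyl-CoA, had levels of 89.5, 103 and 105 CPM in the control libraries and of 283, 309 and 314 CPM in the CD libraries, each given in the order of the replicate numbers, as below. All CD values were well above the controls, and the CD libraries lay close together. The mean rose from 99.1 ± 8.40 to 302 ± 17.1 CPM (SD, n = 3 each), a fold of 3.05 with a 95% interval of 2.55 to 3.64 (FDR 3.71e-06, edgeR). In the RefSeq annotation of another mink assembly (ASM_NN_V1), ACAT2 overlaps TCP1, a subunit of the cytosolic chaperonin, which had a log2 fold change of -0.41 (FDR 0.0250, edgeR). Reads on the shared stretch cannot be assigned to either gene without strand, and no source used here gives the strand setting of the counting.

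HMGCS1 (ENSNVIG00000003550), which condenses acetoacetyl-CoA with acetyl-CoA to HMG-CoA, was at 112, 135 and 142 CPM in the control and at 1638, 1413 and 1160 CPM in the CD replicates. The lowest CD library was still several times above the highest control, although the CD libraries differed among themselves. The fold was 10.8 with a 95% interval of 8.33 to 14.0 (FDR 4.17e-07, edgeR), and by log2 fold change HMGCS1 stood at rank 91 of the 12148 tested genes.

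In the middle of the pathway, PMVK was not called, MVD rose by just under 2-fold and IDI1 by more. PMVK (ENSNVIG00000018365), which adds the phosphate that makes mevalonate diphosphate, was at 107, 112 and 118 CPM in control and at 84.4, 101 and 137 CPM in CD replicates 1, 2 and 3. The CD libraries lay on both sides of the controls, so the groups overlapped. The mean was 112 ± 5.39 CPM in control and 107 ± 26.5 CPM in CD, and the log2 fold change of -0.063 was smaller than its standard error of 0.17 (FDR 0.775, edgeR). The 95% interval of the fold, 0.741 to 1.24, leaves out an increase of the size seen in each of the other members. The estimate depended on single CD libraries, as it was 0.096 without CD replicate 1 (FDR 0.588) and -0.31 without CD replicate 3, where it was called lower (FDR 0.0173, edgeR). Without CD replicate 3 the number of called genes in all went from 5800 to 7222.

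MVD (ENSNVIG00000008732), which forms isopentenyl diphosphate by decarboxylation, was at 437, 436 and 562 CPM in the control replicates and at 797, 989 and 1046 CPM in the CD replicates. Every CD library was higher than every control, by a smaller ratio than in the other 5 called members. The fold was 1.97 with a 95% interval of 1.56 to 2.49 (FDR 5.17e-04, edgeR). IDI1 (ENSNVIG00000010275), the isomerase that supplies the allylic unit for chain growth, was at 526, 560 and 639 CPM in control and at 2043, 2390 and 2946 CPM in CD replicates 1, 2 and 3. The groups were far apart, with a fold of 4.28 and a 95% interval of 3.32 to 5.51 (FDR 6.54e-06, edgeR).

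At the end of the segment, both prenyl-coupling enzymes rose. FDPS (ENSNVIG00000019613), whose product farnesyl diphosphate also feeds protein prenylation, dolichol and coenzyme Q, was at 588, 637 and 763 CPM in control and at 1452, 1739 and 2012 CPM in CD replicates 1, 2 and 3. No CD library came near the controls. The fold was 2.62 with a 95% interval of 2.05 to 3.34 (FDR 7.69e-05, edgeR). FDFT1 (ENSNVIG00000021462), the squalene synthase, was at 106, 111 and 120 CPM in control and at 512, 516 and 487 CPM in CD replicates 1, 2 and 3. It varied little among the CD libraries, and its fold of 4.50 had a 95% interval of 3.79 to 5.34 (FDR 4.95e-07, edgeR).

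**Figure D2:**
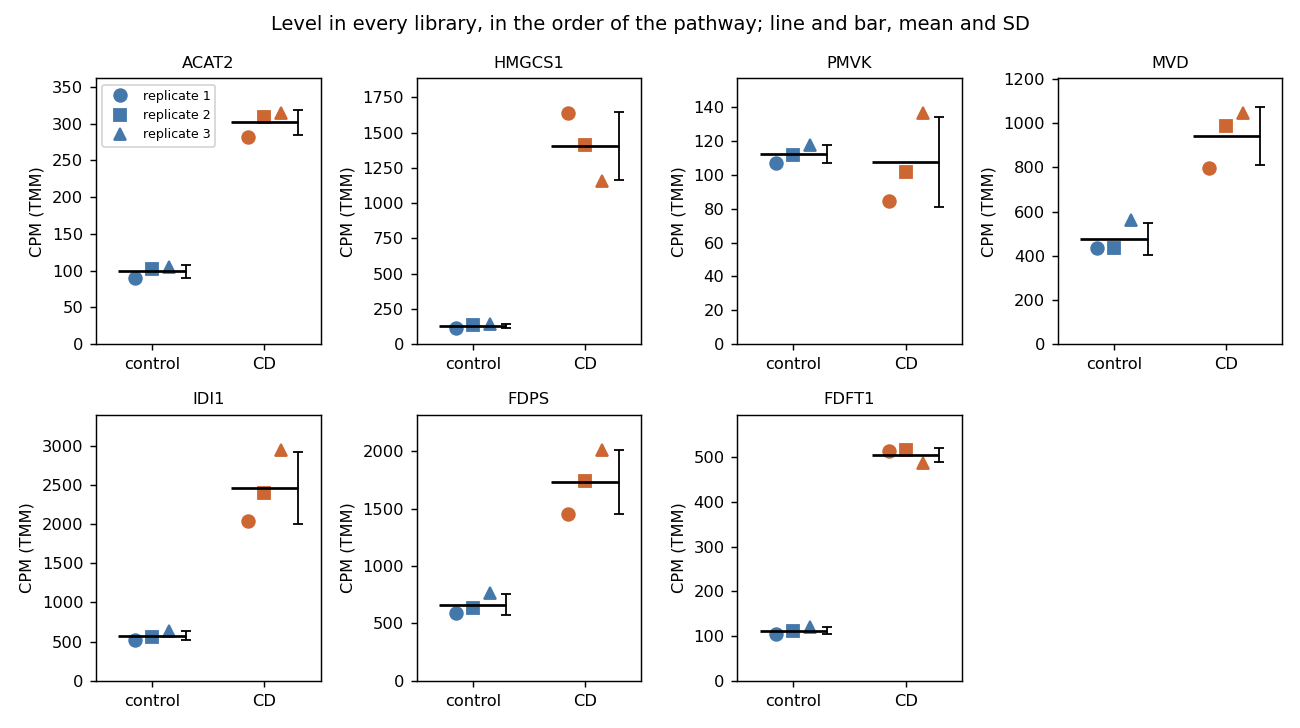
CPM after TMM scaling (vertical axes from 0) of the 7 enzymes in each control (blue) and CD (orange) library, the symbols marking the replicate number and the lines and bars the mean and SD of 3 libraries. The groups are apart in each panel but that of PMVK, where the CD libraries span 84.4 to 137 CPM around control values of 107 to 118 CPM.

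The size of the change was compared between neighbouring steps, although with 3 libraries per group the exact permutation test of a single pair cannot give a p under 0.05. It was taken as the ratio of neighbouring members within each library, which does not depend on how the libraries are scaled, over 6 pairs along the pathway (HMGCS1 and PMVK are neighbours only among the members, since other steps lie between them). The log2 fold change of HMGCS1 exceeded that of ACAT2 by 1.82 ± 0.19 (standard error), and that of PMVK was lower than that of HMGCS1, with a difference of -3.52 ± 0.35. From PMVK to MVD the log2 fold change was higher by 1.07 ± 0.14 and from MVD to IDI1 by a further 1.11 ± 0.082. FDPS then stood below IDI1, with a difference of -0.70 ± 0.039, and FDFT1 above FDPS by 0.79 ± 0.17. In each of the 6 pairs the ratios of the CD libraries did not overlap those of the control libraries. The share of other gene pairs without overlap was not computed, and of single tested genes 29.5% had all CD libraries above and 28.6% all below the controls, so the count of pairs is a description. The exact permutation test, two-sided, gave p = 0.1 for each pair, the smallest value that 3 libraries against 3 allow, and adjustment over the 6 pairs left it at 0.1.

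Among the CD libraries, the members fell into different orders. ACAT2, PMVK, MVD, IDI1 and FDPS were lowest in CD replicate 1 and highest in CD replicate 3, whereas HMGCS1 was highest in CD replicate 1 and lowest in CD replicate 3. Over all tested genes, CD replicate 3 was the highest CD library in 40.1% and the lowest in 41.0%, and CD replicate 1 was the highest in 36.8% and the lowest in 35.2%. The share of genes with both places at once, as in either order of the members, was not computed. The log2 CPM difference of CD replicate 3 minus CD replicate 1 was 0.69 for PMVK, 0.53 for IDI1, 0.47 for FDPS, 0.39 for MVD and 0.15 for ACAT2. It was -0.075 for FDFT1 and -0.50 for HMGCS1. The median over the tested genes was -0.0048, with quartiles of -0.46 and 0.33, so PMVK lay toward the upper end, at percentile 94.1. The SD of log2 CPM among the CD libraries ran from 0.046 for FDFT1 and 0.083 for ACAT2 to 0.35 for PMVK, against a median of 0.24 over all tested genes. FDFT1 was thus among the steadiest genes in CD, at percentile 2.89.

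**Figure D3:**
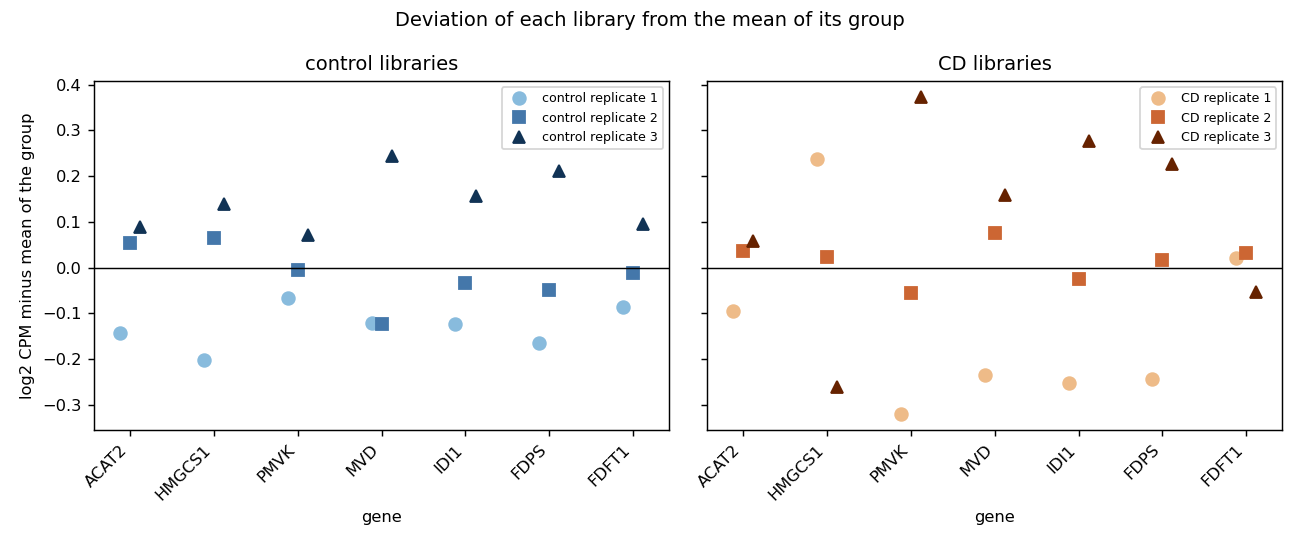
Log2 CPM of each library minus the mean of its group (vertical axes) for the 7 enzymes, with control libraries on the left and CD libraries on the right. Control replicate 3 stands highest for each gene, while among the CD libraries replicate 3 is highest for ACAT2, PMVK, MVD, IDI1 and FDPS and lowest for HMGCS1 and FDFT1.

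In the control group the order was shared. Control replicate 3 was the highest control library for all 7 members, and control replicate 1 the lowest for 6 of them, MVD having nearly equal values in control replicates 1 and 2. Control replicate 3 was the highest in 39.2% of the tested genes, and control replicate 1 the lowest in 29.7%. The place of control replicate 3 was not particular to the members. It was also the highest control library for most of the tested enzymes downstream of squalene, and for each tested gene of acetyl-CoA supply and of SREBP regulation in the lists below. The log2 CPM difference of control replicate 3 minus control replicate 1 lay between 0.14 (PMVK) and 0.38 (FDPS), with a median of 0.022 over all tested genes. Control replicate 3 also had the most gene reads and the lowest share of unmapped reads of the control group (4.25%, against 18.4% in control replicate 1), and the part of this in the order was not tested.

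The lists around the 7 genes were written from general knowledge of the pathway. Downstream of squalene, the enzymes that close and trim the sterol ring were mostly higher in CD as well. Of 11 such enzymes, 9 were tested, and edgeR called 8 of them higher and 1 lower, beside 24.8% and 22.9% of all tested genes. The median log2 fold change was 1.20. CYP51A1, the lanosterol demethylase, had the highest log2 fold change at 2.34 (FDR 8.85e-07, edgeR), and LBR, a sterol reductase that also anchors lamins, the lowest at -1.12 (FDR 9.00e-04, edgeR). TM7SF2, another sterol reductase of the list, was called higher at 2.01 (FDR 1.41e-05, edgeR). DHCR7, a reductase at the end of the pathway, had a log2 fold change of 0.52 (FDR 0.0120, edgeR). Its call was less certain, as it was lost when control replicate 1, control replicate 2 or CD replicate 2 was left out (0.44 to 0.47). These fits called 4479, 4757 and 5029 genes in all, against 5800 with all libraries.

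The genes that supply cytosolic acetyl-CoA, the starting unit of the pathway, were called higher in all 3 cases tested, of 5 listed, beside 24.8% of all tested genes. ACLY, which cleaves citrate to acetyl-CoA, was at 503, 529 and 640 CPM in control and at 2731, 2614 and 1626 CPM in CD replicates 1, 2 and 3. Its groups did not overlap, and its fold was 4.17 with a 95% interval of 3.04 to 5.72 (FDR 3.07e-05, edgeR). The citrate carrier SLC25A1 had the smallest log2 fold change of the list, 0.80 (FDR 4.67e-04, edgeR).

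The mitochondrial counterpart of ACAT2 had a smaller log2 fold change. ACAT1, the mitochondrial thiolase, was at 199, 199 and 225 CPM in control and at 254, 263 and 317 CPM in CD. It was called higher with a log2 fold change of 0.42 (FDR 0.0168, edgeR), and its call was lost when control replicate 1 or control replicate 2 was left out (0.39 in both cases). Those fits called 4479 and 4757 genes in all, against 5800 with all libraries. The 95% interval of the fold of ACAT1, 1.11 to 1.62, lay below that of ACAT2.

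The genes that control SREBP processing were listed with those of the SREBPs themselves. Of 7 genes, 6 were tested, 1 was higher, 1 was lower and 4 were not called (edgeR), with a median log2 fold change of -0.12. Over all tested genes 24.8% were higher and 22.9% lower, so these shares were near those of the whole table. INSIG1, the protein that holds SREBPs back in the endoplasmic reticulum when sterols are plentiful, was the higher gene, with a log2 fold change of 1.67 (FDR 8.48e-06, edgeR), and SREBF1 the lower one at -0.74 (FDR 0.00146, edgeR). SREBF2, which encodes the SREBP that acts mainly on cholesterol genes, had a log2 fold change of 0.17 with a 95% interval of -0.14 to 0.49 (FDR 0.337, edgeR). MBTPS2, a protease that releases SREBPs, had a log2 fold change of -0.35 and was called lower only without CD replicate 1, at -0.55 (FDR 0.0155, edgeR, among the settings run).

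A further list held the branches that use farnesyl diphosphate for other products. Of 11 listed genes of geranylgeranyl diphosphate, dolichol and coenzyme Q synthesis and of protein prenylation, 10 were tested, 2 were higher and 4 lower (edgeR), with a median log2 fold change of -0.37. The share of higher genes was close to the 24.8% of all tested genes, and 22.9% of all tested genes were lower. FNTA, the subunit shared by 2 prenyltransferases, had the highest log2 fold change at 0.78 (FDR 0.00371, edgeR), and DHDDS, a subunit of the enzyme that builds the dolichol chain, the lowest at -1.36 (FDR 1.39e-04, edgeR). DHDDS was at 135, 117 and 135 CPM in control and at 55.7, 57.9 and 37.0 CPM in CD, so the groups did not overlap. Several of the other calls of this list changed when 1 library was left out. With all 6 libraries 5800 genes were called in all, against 4479, 4757 and 4410 without control replicates 1, 2 and 3. Without CD replicate 2 the number was 5029, and the part of these falls in the lost calls was not tested. GGPS1 (log2 fold change 0.65) lost its call when control replicate 1, control replicate 3 or CD replicate 2 was left out (0.60, 0.54 and 0.71), FNTB (-0.50) when control replicate 3 was (-0.42), and RABGGTA (-0.35) when any control library or CD replicate 1 was (-0.36, -0.36, -0.34 and -0.25). NUS1 was called higher (0.50) and PDSS2 lower (-0.46) without CD replicate 3, where 7222 genes were called in all. PGGT1B was called lower (-0.66) without CD replicate 1, where 5961 were.

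**Figure D4:**
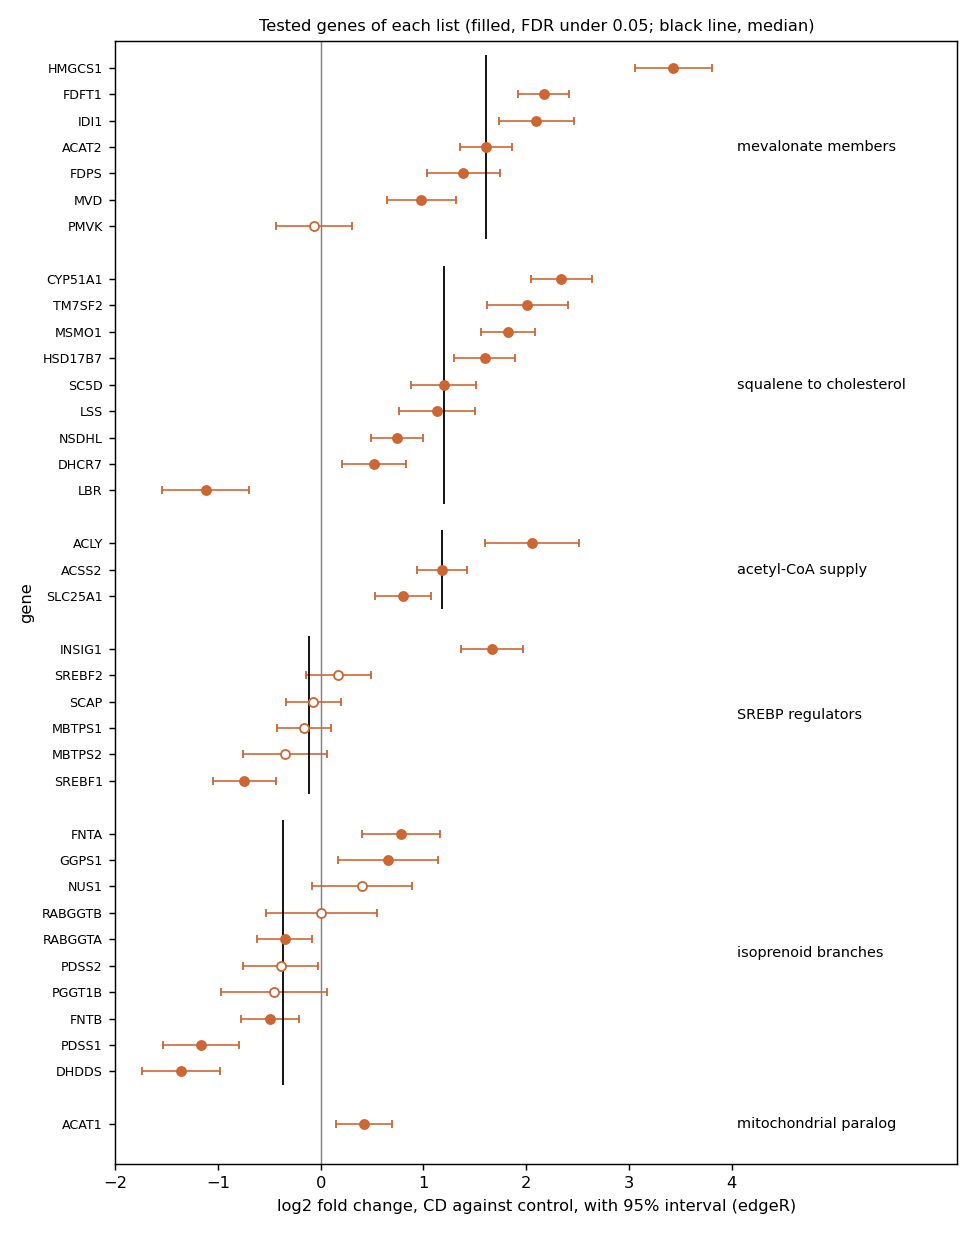
Log2 fold change of CD against control (horizontal axis) with 95% intervals from edgeR for each tested gene of the lists, in which ACAT1 stands alone; filled points have an FDR under 0.05 and black lines mark list medians. The medians are 1.61 for the mevalonate enzymes, 1.20 from squalene to cholesterol and -0.37 for the isoprenoid branches.

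The level over the 6 libraries was also compared between the members and all other genes. As a description, the mean of the standardized log2 CPM of the 7 genes had its highest Pearson correlations with CES2, a carboxylesterase (r = 0.9995), FBXL12 (0.9986), DDA1 (0.9969), CAMK1 (0.9969) and ZNF41 (0.9967), over 6 libraries that share treatment groups and depth. The difference between the groups sets most of such an r, and 47 of 9986 named genes reached 0.99. Each library was then taken as its deviation from the mean of its group, and the deviations of each member were divided by their SD before averaging. The 5 genes with the highest correlation with this mean were XPNPEP1, RDH5, MOCS3, ARVCF and ZNF503, with r between 0.991 and 0.994, and 118 genes reached 0.9. The members themselves did not deviate alike, as their correlation with HMGCS1 over the same 6 values ran from -0.693 for PMVK to 0.787 for FDFT1.

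The genes beside the members were looked up in the RefSeq annotation of ASM_NN_V1, in which 6 of the 7 members were found by symbol (IDI1 was not). Apart from ACAT2 with TCP1, no member overlapped another annotated gene. Of the nearest protein-coding genes on either side, 4 were tested by symbol and 1 was called, beside 47.7% of all tested genes. FDFT1 lies between NEIL2 and CTSB, with log2 fold changes of 0.092 (FDR 0.666) and -0.032 (FDR 0.856, edgeR), and neither was called. PBXIP1, next to PMVK, was the gene called, with a log2 fold change of 0.49 (FDR 0.0122, edgeR), and SNAI3, next to MVD, had one of -0.46 (FDR 0.245, edgeR). These neighbours were chosen after the values of the members had been seen.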

How the data were processed

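For each library, the authors prepared poly(A) mRNA, amplified the cDNA, used the Nextera XT kit and sequenced on a NextSeq500. Per the methods and processing notes, reads were processed with fastp 0.20.1 and STAR 2.7.2a (mink assembly NNQGG.v01) and compared with DESeq2 1.30.1 in R 4.0.3. No source used here gives the counting program or its strand setting. The authors deposited raw read counts per gene, without normalization. Excluded were 4 rows without a gene (unmapped, multimapping, ambiguous or off-gene reads), 29.3% to 47.2% of the reads. Deposited normalized values of the same libraries were not used here.

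The counts were tested in R 4.3.3 with edgeR 4.0.16 (filterByExpr with a minimum count of 10 and a total of 15, TMM, robust glmQLFit, glmQLFTest, condition as the only term) over all 6 libraries, with Benjamini-Hochberg adjustment over the 12148 tested genes. A standard error was the log2 fold change divided by the root of F, and its median was 0.18, the precision this depth and 3 libraries allow. Intervals are 95% from the t distribution of the fit. Log2 CPM used a prior count of 2. The test was checked on simulated data. The members and lists were chosen with earlier results of these data known. The genes named are the members, the highest and lowest of each list, and the 5 most correlated genes of each kind; further list genes are named after their values were seen, because leaving out 1 library changed their call or because their role in the pathway was needed. Replicate libraries of a group differed by more than counting noise (chi-square per degree of freedom 8.93 to 68.6), so each counted as 1 sample. Alternatives were DESeq2 1.42.0, limma-voom (limma 3.58.1), other scalings and filters, a block for the replicate number, leaving out single libraries, and stricter thresholds. Some genes of the pathway lists are not reported here, and the counts and medians of lists are over the other genes. Promoter and protein sequences were not analysed here.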

Additional observations from a re-analysis of the deposited data

How the results depend on the processing

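Of the 7 members, 6 were called higher under each of the 14 alternative fits and at an FDR of 0.01, and 5 (not MVD, nor PMVK) in a test against a 2-fold change. Over the 14 fits, 4410 to 7222 genes were called in all in either direction, beside 5800 in the main fit. The shares over all genes at an FDR of 0.01 and in the 2-fold test were not computed. The median log2 fold change of the members stayed between 1.54 and 1.67 over the 14 fits. PMVK turned to 0.096 without CD replicate 1 (FDR 0.588, edgeR), and in 1 of the 14 fits, without CD replicate 3, it was called at -0.31, while its FDR reached 0.926 without control replicate 3. For the called members the highest FDR over the fits was 0.00557 (MVD without control replicate 2). With each library left out, the differences between neighbouring steps kept their sign, from -3.83 to -3.24 for PMVK minus HMGCS1 and from -0.72 to -0.67 for FDPS minus IDI1. Over the same fits, the number of higher genes lay between 1 and 3 for the isoprenoid branches and 0 and 1 for the mitochondrial paralog, and the number of lower genes between 2 and 5 for the isoprenoid branches and 1 and 2 for the regulators. The number of genes called in all lay between 4410 and 7222 in these fits. DESeq2 gave the numbers of edgeR for each list.

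The replicate numbers are shared by the groups, but libraries of the same number did not deviate together (correlations of -0.024, -0.329 and -0.185 across tested genes, 0 of 6 libraries correlating best with their own number), so they were not treated as pairs. With the replicate block, 6 members were called higher with a median of 1.61, PMVK was at -0.089 (FDR 0.691, edgeR), and the number of called genes went from 5800 to 5408. Of the list genes, RABGGTA was not called with the block (-0.36, FDR 0.0738). The differences between neighbouring steps are the same with the block by construction. Every member had at least 1249 reads in each library, so the spread between libraries limits these values rather than the count.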
